A study of Homo sapiens with 4 samples.

Results

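The clustered histone genes were the 71 protein-coding genes, of 58735 genes in the deposited expression table, whose names start with HIST and a digit. They code for the linker histone H1 (6 genes), for H2A (17), H2B (18), H3 (15) and H4 (15), and lie at 4 loci: HIST1 on chromosome 6 (55 genes), HIST2 (12) and HIST3 (3) on chromosome 1, and HIST4 (1) on chromosome 12. RNA was sequenced from a line labelled as a squamous lung carcinoma cell, in 2 libraries named for a dose of 0 Gy and 2 named for 30 Gy (gray, the unit of absorbed radiation). No other agent or allele is given for either group. The series design names SK-MES-1, a line from a squamous lung tumour, and SK-MES-1-RR, a derivative resistant to radiotherapy. Which library came from which line, how the dose was delivered and when RNA was taken are not stated, so line, dose and time cannot be told apart. Nothing says that libraries 1 and 2 of a group came from separate cultures, so a p-value measures only the spread between these libraries, which may be technical.

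Histones are the proteins around which DNA is wound: H2A, H2B, H3 and H4 form the core of the nucleosome and H1 binds the DNA between cores. The clustered genes are known as replication-dependent, because cells make most of their RNA during S phase, when new DNA needs histones. Most of that RNA has no poly(A) tail. It ends instead just after a short hairpin, the stem-loop, which is bound by the protein SLBP. Some clustered genes also give longer, polyadenylated transcripts. Replication-independent histones, such as H3.3 and H2A.Z, come from genes outside the clusters with ordinary polyadenylated RNAs.

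Reads were few. FPKM (fragments per kilobase of gene length, relative to the reads of the library) are given for level, and the whole reads recovered from them are given for precision. Of 15920861 to 17261121 reads per library, the 71 genes together held 1121 and 858 at 0 Gy and 1117 and 1266 at 30 Gy, which is 0.00512% to 0.00792% of a library. A read was found for 52 genes, while 19 were listed at 0 in all 4 libraries. A count of 0 allows up to 3 reads in a library, which for these 19 genes corresponds to 0.0837 to 0.635 FPKM, depending on gene length and library. Only 26 genes had a read in every library, and 14 had at least 10 reads in every library. Intervals and floors cover counting error only. Whether the libraries were selected for poly(A) is not given in the sources used here. Of 9 RNAs known to lack a tail, chosen after levels had been seen, 7 were listed at 0 in every library: RMRP, RPPH1, RN7SK, RN7SL1, TERC, RNU1-1 and SCARNA2. RN7SL2 had 530 and 184 FPKM at 0 Gy and 139 and 198 FPKM at 30 Gy, and RNU4-1 had 0.408 FPKM in the first 0 Gy library and 0 in the others. The part of RNA selection in the low histone levels was not tested.

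The labelled cell type was checked against markers. Of 8 squamous markers, KRT5, KRT6A, KRT6B and DSG3 were at 0 in all libraries. The summed level was 21.8 to 22.5 FPKM at 0 Gy and 18.6 to 20.1 FPKM at 30 Gy. Most of it was PKP1 (17.6 and 18.3, then 16.2 and 14.8 FPKM) and TP63 (3.95 and 4.14, then 3.34 and 3.19 FPKM). KRT14 and SOX2 were at most 0.110 and 0.548 FPKM. All 5 simple epithelial markers were present, with sums of 332 to 344 FPKM at 0 Gy and 368 to 402 FPKM at 30 Gy. Single markers differed in opposite directions, with mean levels at 0 Gy and 30 Gy of 95.8 and 210.9 FPKM for KRT7 and of 162 and 88.4 FPKM for KRT19. Fibroblast markers summed to 62.8 to 63.2 FPKM at 0 Gy and 72.4 to 78.7 FPKM at 30 Gy, nearly all of it COL1A1 (62.1 and 62.4, then 76.3 and 69.6 FPKM). DCN was at 0, and COL1A2 and COL3A1 were at most 0.0056 and 0.055 FPKM. LUM had 0.0191 and 0.0978 FPKM at 0 Gy and 0.895 and 1.32 FPKM at 30 Gy. PDGFRB had 0.652 and 0.717 FPKM, then 1.46 and 1.51 FPKM. Endothelial, leukocyte and erythroid sums were at most 0.160 FPKM. The squamous, simple epithelial and fibroblast sums did not overlap between doses, and their part in the histone values was not tested.

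The hairpin at the end of the transcript is the feature that sets these genes apart, so it is shown first for the most abundant genes whose annotated transcript reaches it. The search, in the transcript after the stop codon, was for a stem of 6 bases starting with GG, a loop of 4 bases starting with TT, and the reverse complement of the stem with at most 1 mismatch. The 6-base arms are in capitals, and 5 bases are shown on each side. Transcripts are those of GENCODE 29 on GRCh38.
HIST1H2AC: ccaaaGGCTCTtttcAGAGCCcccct
HIST1H2BD: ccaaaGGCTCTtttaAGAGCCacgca
HIST1H3H: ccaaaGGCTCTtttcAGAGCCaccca
HIST3H2A: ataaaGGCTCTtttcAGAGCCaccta
HIST2H2BE: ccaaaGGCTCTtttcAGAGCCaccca
HIST1H2AG: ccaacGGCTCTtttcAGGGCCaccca
HIST1H4I: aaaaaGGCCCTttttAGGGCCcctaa
HIST1H4H: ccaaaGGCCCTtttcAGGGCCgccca
The 16 bases of the hairpin lie at chr6:26124669-26124684 (plus strand) in HIST1H2AC, chr6:26158587-26158602 (plus) in HIST1H2BD, chr6:27810516-27810531 (plus) in HIST1H3H, chr1:228457369-228457384 (minus) in HIST3H2A, chr1:149886188-149886203 (minus) in HIST2H2BE, chr6:27139654-27139669 (plus) in HIST1H4I and chr6:26285131-26285146 (minus) in HIST1H4H. HIST1H2AG is the one member whose arms have a mismatch. The H2A, H2B and H3 genes shown share the left arm GGCTCT, and both H4 genes have GGCCCT.

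Among the 36 members with at least 16 annotated bases after the stop codon, 31 (86.1%) had such a hairpin within 200 bases. Of all 19097 coding genes with that many bases, 141 (0.738%) had one, and H2AFX was among the 110 that are not members. The commonest form, with loop bases TTTC between arms GGCTCT and AGAGCC, occurred in 17 members. The other forms were found in 5, 5, 3 and 1 members, and both forms with GGCCCT as left arm occurred only in H4 genes, 8 of them. The other 35 members have a transcript model that ends at the stop codon, so no hairpin could be looked for in them. They include HIST1H2BK, HIST1H1C and HIST2H2AC.

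A few genes made up most of the signal. The 4 highest, HIST1H2BK, HIST1H1C, HIST1H2BD and HIST1H2AC, held 67.9% of the family's FPKM and 54.1% of its reads. By type, H2B took 47.6% of the FPKM, H1 21.7%, H2A 19.0%, H4 7.37% and H3 4.39%. By locus, HIST1 took 89.9%.

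**Figure D1:**
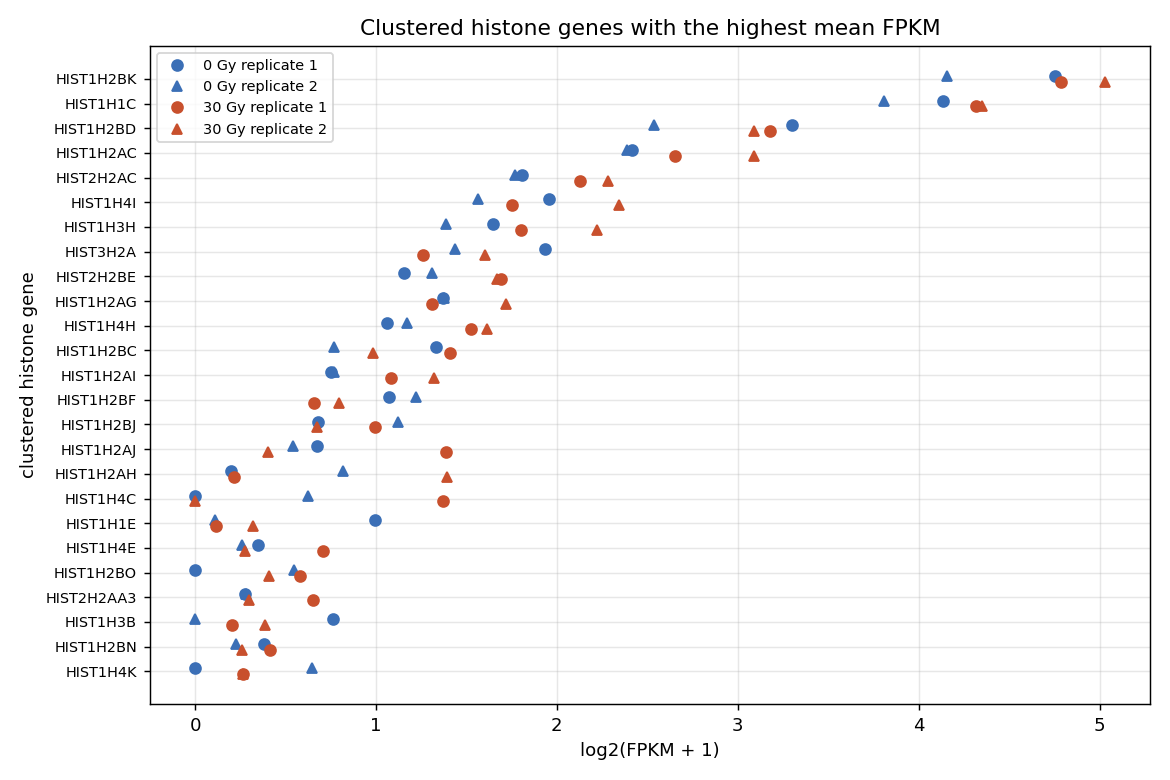
Level of the 25 highest clustered histone genes in each library, as log2(FPKM + 1), with 1 point per library and the 2 doses in different colours. HIST1H2BK and HIST1H1C stand above the others, and the points of the 2 doses overlap for many of the lower genes.

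Linker histone H1 compacts the fibre between nucleosomes. HIST1H1C (chr6:26055787-26056428, minus strand, H1.2) gave 96.9% of the H1 signal, with 16.6 and 13.0 FPKM at 0 Gy and 18.9 and 19.4 FPKM at 30 Gy. Both 30 Gy libraries lay above both 0 Gy libraries. HIST1H1E (H1.4) had 13 reads in the first 0 Gy library and 1, 1 and 3 in the others, so its level rested on 1 library. HIST1H1B had 1 to 3 reads per library, HIST1H1D and the testis H1 gene HIST1H1T had 1 read in all, and HIST1H1A had none.

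Among H2A genes, 13 of 17 had reads. HIST1H2AC (chr6:26124145-26139116, plus strand) led with 34.8% of the H2A signal. It stood at 4.34 and 4.23 FPKM at 0 Gy and 5.30 and 7.50 FPKM at 30 Gy, from 126, 120, 141 and 199 reads. HIST2H2AC (chr1:149886975-149887364, plus strand) had 2.50 and 2.41 FPKM at 0 Gy and 3.37 and 3.87 FPKM at 30 Gy. The groups did not overlap for either gene. HIST3H2A, at the small HIST3 locus, had 2.82 and 1.71 FPKM at 0 Gy and 1.40 and 2.04 FPKM at 30 Gy, so its groups overlapped. HIST1H2AG had 1.58 and 1.59 FPKM at 0 Gy and 1.48 and 2.29 FPKM at 30 Gy, again with overlap. HIST1H2AI had 6, 6, 9 and 12 reads, for 0.685 and 0.702 FPKM at 0 Gy and 1.12 and 1.50 FPKM at 30 Gy. HIST2H2AA3 had 2, 2, 5 and 2 reads.

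H2B had the highest level of any type. HIST1H2BK (chr6:27146418-27146798, minus strand) alone gave 65.7% of it, at 25.9 and 16.8 FPKM at 0 Gy and 26.6 and 31.7 FPKM at 30 Gy. Its 30 Gy libraries were both higher, although the first 0 Gy library was close to the lower of them. HIST1H2BD had 8.84 and 4.80 FPKM at 0 Gy and 8.05 and 7.51 FPKM at 30 Gy, with the 0 Gy libraries as highest and lowest. HIST2H2BE (chr1:149884459-149886652, minus strand) had 1.23 and 1.47 FPKM at 0 Gy and 2.23 and 2.18 FPKM at 30 Gy, from 47, 55, 78 and 76 reads, with no overlap. HIST1H2BC had 1.52 and 0.705 FPKM at 0 Gy and 1.65 and 0.980 FPKM at 30 Gy. HIST1H2BF ran the other way, at 1.10 and 1.33 FPKM at 0 Gy and 0.576 and 0.736 FPKM at 30 Gy, from 23, 27, 11 and 14 reads. HIST1H2BJ had 10, 19, 15 and 9 reads and HIST1H2BN, spread over a model of 5477 bases, had 29, 16, 29 and 17, so neither ordered the doses. HIST1H2BO had 8 reads in all.

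H3 and H4 form the central tetramer of the nucleosome, and their genes gave the least signal. HIST1H3H gave 69.7% of the H3 signal, at 2.14 and 1.62 FPKM at 0 Gy and 2.48 and 3.66 FPKM at 30 Gy, with no overlap. It was the only H3 gene with 10 or more reads in all, and 6 of 15 H3 genes had none. HIST1H3B had 5, 0, 1 and 2 reads. HIST1H4I had 2.89 and 1.95 FPKM at 0 Gy and 2.37 and 4.08 FPKM at 30 Gy, with overlap, and gave 47.4% of the H4 signal. HIST1H4H had 1.09 and 1.25 FPKM at 0 Gy and 1.88 and 2.06 FPKM at 30 Gy, from 41, 46, 65 and 71 reads, with no overlap. HIST1H4C showed how thin the lower genes were, with 0, 4, 11 and 0 reads, so its 2 libraries within each dose disagreed about whether it was present. HIST1H4E had 7, 5, 15 and 5 reads and HIST1H4K 0, 3, 1 and 1. HIST4H4, the lone gene on chromosome 12, had 12 and 16 reads at 0 Gy and 7 and 5 at 30 Gy.

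Members of a type can be hard to tell apart by short reads. Of the 15 H4 genes, 14 encode the same protein of 103 residues from 13 distinct coding sequences, and 10 of 15 H3 genes share a protein of 136 residues. The 18 H2B genes encode 14 proteins, the 17 H2A genes 11 and the 6 H1 genes 6. Across a type, the median identity of a coding sequence to its nearest copy was 93.0% for H2B, 90.7% for H2A, 88.1% for H3 and 87.7% for H4. The pairs HIST2H2AA3 with HIST2H2AA4, HIST2H3A with HIST2H3C, HIST2H4A with HIST2H4B and HIST1H4J with HIST1H4K have identical coding sequences. How the authors counted reads that match several genes, or genes that overlap, is not given in the sources used here. Levels of these 8 genes are therefore uncertain, and so are those of members that overlap or nearly match. HIST1H2BN spans HIST1H2AK (0 reads) and HIST1H2AL (5 reads), and HIST1H3J (8 reads) overlaps HIST1H2AM (0 reads). The coding sequences of HIST2H3D (6 reads) and HIST2H3PS2 (0 reads) are 98.8% identical.

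The central question was how the 30 Gy libraries differed from the 0 Gy libraries. HIST2H2AC was the only clustered histone gene that passed the test, and it was higher at 30 Gy. The family's summed level was 81.2 and 59.7 FPKM at 0 Gy and 86.3 and 96.1 FPKM at 30 Gy. That is 70.5 ± 15.3 FPKM against 91.2 ± 6.93 FPKM (SD, n = 2 each), a ratio of 1.29. The groups did not overlap, but 2 libraries against 2 cannot give a two-sided permutation p below 0.333, so the sum was not tested. The ratio was 1.12 without the second 0 Gy library, the lowest of the 4, and 1.53 without the first. In bulk RNA, the number of cells making histone RNA and the amount per cell cannot be told apart.

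The sum differed by type. H4 stood at 4.70 and 5.03 FPKM at 0 Gy and 7.41 and 6.68 FPKM at 30 Gy, a ratio of 1.45. H2A stood at 13.5 and 12.5 FPKM at 0 Gy and 15.3 and 20.0 FPKM at 30 Gy, a ratio of 1.36. H2B was at 40.4 and 27.1 FPKM at 0 Gy and 41.3 and 45.1 FPKM at 30 Gy, a ratio of 1.28. The H1 sum was 17.8 and 13.3 FPKM at 0 Gy and 19.1 and 19.9 FPKM at 30 Gy, a ratio of 1.26. In these 4 types the 2 doses did not overlap. The H3 sum was 4.87 and 1.79 FPKM at 0 Gy and 3.12 and 4.41 FPKM at 30 Gy, so the doses overlapped. By locus, HIST1 had a ratio of 1.31 and HIST2 of 1.45. HIST3, at 3.52 and 1.71 FPKM at 0 Gy and 1.53 and 2.14 FPKM at 30 Gy, had a ratio of 0.703 with overlap. The single HIST4 gene was lower in both 30 Gy libraries, at 0.170 and 0.122 FPKM against 0.267 and 0.365 FPKM.

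**Figure D2:**
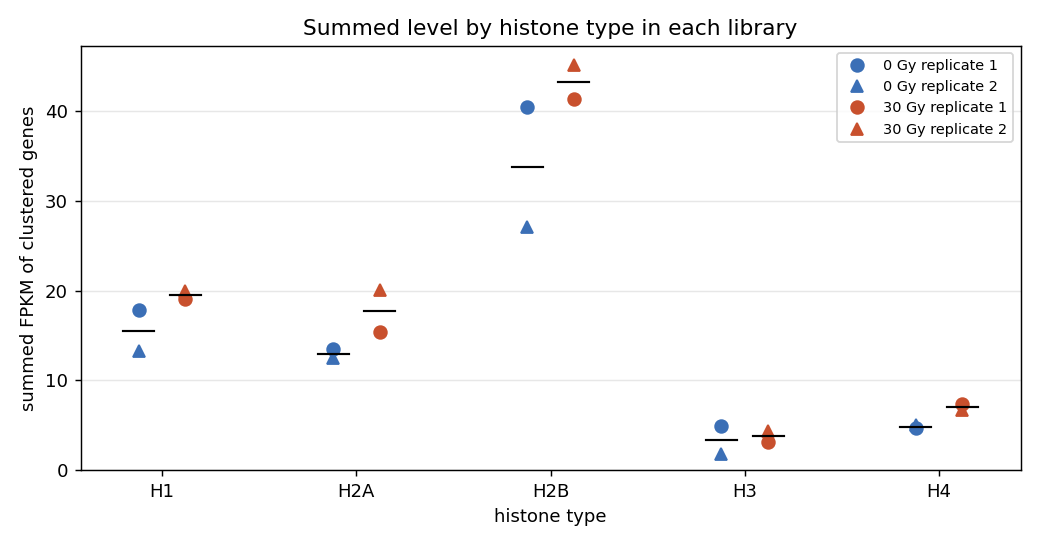
Summed FPKM of the clustered histone genes of each type, with 1 point per library and a bar at the mean of each dose. The 30 Gy points lie above the 0 Gy points for H1, H2A, H2B and H4 and overlap them for H3.

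The test was limma on log2(FPKM + 1) over the 13379 genes that reached 1 FPKM in 2 or more libraries, with p-values adjusted over all of them by the Benjamini-Hochberg method and a threshold of 0.05. Of the 71 members, 14 entered it. The other 57, of which 38 had reads, were too low. Just inside that limit were HIST1H2BF, HIST1H2AI and HIST1H2BC. Just outside were HIST1H2BJ (0.605 and 1.18 FPKM at 0 Gy, 0.989 and 0.596 FPKM at 30 Gy), HIST1H2AH (0.148 and 0.760, then 0.162 and 1.62 FPKM) and HIST1H2AJ (0.594 and 0.456, then 1.62 and 0.325 FPKM). HIST1H2AI passed the filter through its 30 Gy libraries alone and HIST1H2BF through its 0 Gy libraries alone.

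Of the 14 tested members, 1 was called higher and 0 lower by limma, which is 7.14%. Over all tested genes 19.8% were called, 10.8% higher and 9.06% lower at 30 Gy. At an unadjusted p under 0.05 there were 8 members, 7 higher and 1 lower, while 37.7% of all tested genes were under it. The log2 change was positive for 12 members and negative for 2, with a median of 0.39, while 49.9% of all tested genes were positive. The groups did not overlap in 8 members that were higher at 30 Gy and in 1 that was lower, against 32.9% and 32.3% of all tested genes. These counts include HIST1H2AI, among the higher members, and HIST1H2BF, the 1 lower member by unadjusted p and by overlap. Each passed the filter through 1 dose alone, which by itself fixed its direction and kept its groups apart. The second 0 Gy library was the lowest of the 4 for 8 of the 14 members, and the second 30 Gy library was the highest for 9. With limma's voom on the recovered reads, which called 4227 genes in all, 0 of the 14 members were called and 3 had an unadjusted p under 0.05. The lowest adjusted p there was 0.0662, for HIST1H2AC. When either 0 Gy library was left out, limma called 0 of the 13379 genes (3422 and 3460 at an unadjusted p under 0.05), so every call given here rests on both 0 Gy libraries.

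HIST2H2AC, which codes for a core H2A, had a log2 change of 0.42 (SE 0.10, 95% interval 0.16 to 0.67) and an adjusted p of 0.0466 by limma. Its mean was 2.46 ± 0.0645 FPKM at 0 Gy and 3.62 ± 0.350 FPKM at 30 Gy (SD, n = 2 each), 1.47-fold higher. These levels came from 17 and 16 reads at 0 Gy and 21 and 24 reads at 30 Gy. Exact 95% Poisson intervals ran from 9.90 to 27.2 reads for 17 and from 15.4 to 35.7 reads for 24. These intervals are wide and overlap, but they belong to single libraries and are no test of a difference between the doses. The counts at 0 Gy, 17 and 16, lie much closer together than such an interval is wide. The limma p rests partly on this narrow spread, which is below counting error, so it may be too small. The call was lost with voom (log2 change 0.53, 95% interval -0.55 to 1.60, adjusted p 0.464). It was lost too in each of the 4 fits that omitted 1 library (adjusted p 0.0861 to 0.198).

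The members nearest to the threshold were also higher at 30 Gy. HIST2H2BE, the divergent neighbour of HIST2H2AC, differed by 0.45 on the log2 scale (SE 0.12), with 0.0617 as its adjusted p by limma. HIST1H4H had a log2 change of 0.45 (SE 0.13) and an adjusted p of 0.0648. HIST1H1C followed at 0.36 (SE 0.12, adjusted p 0.0941) and HIST1H2AC at 0.47 (SE 0.15, adjusted p 0.0945). Without the first 30 Gy library, HIST1H2AC passed, with a log2 change of 0.69 and an adjusted p of 0.0438. None of these 4 passed the test as run on all 4 libraries.

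HIST1H2BK, the highest gene, had a log2 change of 0.46 with a wide 95% interval, from -0.09 to 1.0, and an adjusted p of 0.188 by limma. HIST1H3H was similar in size at 0.49 (adjusted p 0.122). HIST1H2AI stood at 0.44 (adjusted p 0.119). HIST1H2BD was at 0.22 with a 95% interval from -0.43 to 0.87 (adjusted p 0.578). HIST1H4I, HIST1H2AG and HIST1H2BC had log2 changes of 0.29, 0.14 and 0.15. On the negative side, HIST1H2BF was at -0.42 (adjusted p 0.131), a mean 1.85-fold lower, and HIST3H2A at -0.25 (adjusted p 0.448). A missed threshold does not show that these genes were equal between doses.

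**Figure D3:**
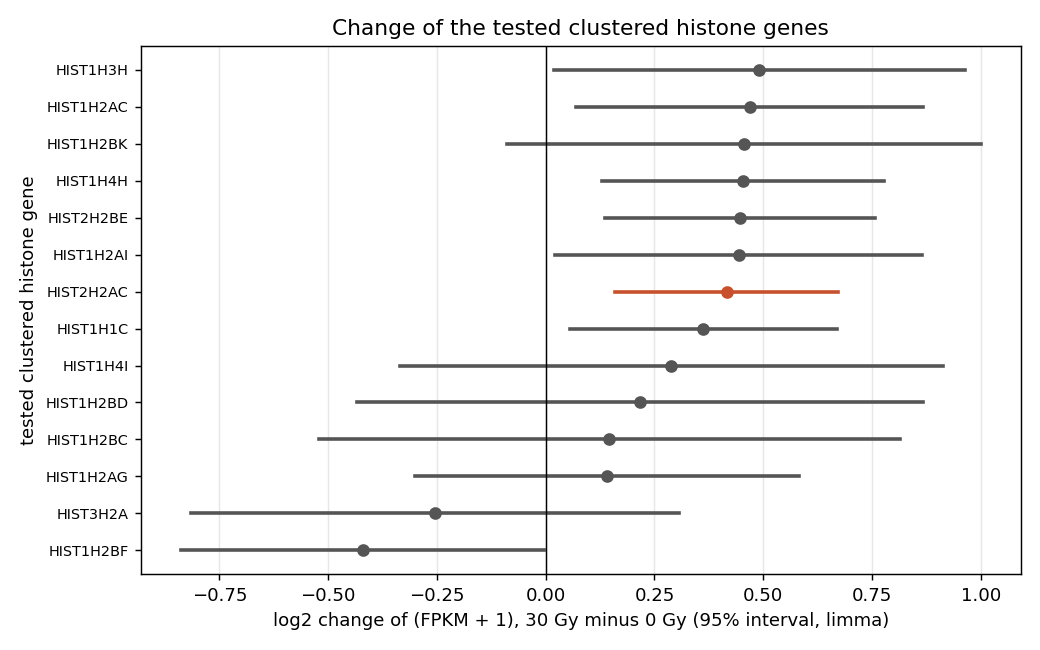
Log2 change of FPKM + 1, 30 Gy minus 0 Gy, for the 14 tested clustered histone genes, with 95% intervals from limma. The estimate is above 0 for 12 genes and below 0 for 2, and HIST2H2AC alone passed the adjusted threshold.

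Read numbers were also set out by how the annotated transcript ends after the stop codon. The 35 members whose model ends at the stop codon had a median of 1 read over the 4 libraries, and 16 of them were at 0. Of their 1527 reads, HIST1H1C and HIST1H2BK held 88.7%. The 11 members with up to 150 unspliced bases after the stop had a median of 6 reads. The 25 members with a longer or spliced 3′ end had a median of 40 reads, only 3 at 0, and 62.7% of the family's reads. Among these, 16 had 10 or more reads, against 5 of 35 and 4 of 11. Longer models also collect more reads: their lengths were 834 to 5477 bases, against 297 to 775 bases for models ending at the stop. Per length, the medians were 0.251 FPKM for the longer models and 0.0366 FPKM for those ending at the stop codon. Summed over genes the order was the other way, with 48.7 FPKM for the models ending at the stop codon, mostly from those 2 genes, and 29.3 FPKM for the longer models. Long models without reads occurred too: HIST1H2BH, with 1640 bases past its hairpin, had none, and HIST3H2BB, with 1917, had 8 reads. The class limit was chosen after the models had been seen, and no test was made.

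Stretches past the hairpin were measured in the annotated transcripts that hold it. The longest among the abundant members were 1761 bases in HIST1H2AG, 1729 in HIST2H2BE, 1114 in HIST1H2AC, 769 in HIST1H3H and 630 in HIST1H4H. They were 390 bases in HIST3H2A, 212 in HIST1H4I and 39 in HIST1H2BD. HIST1H2BD also has a spliced coding transcript, and the longest 3′ end annotated for this gene is 384 bases after the stop codon. Of the hairpins printed above, then, most belong to genes for which a transcript running well beyond the hairpin is annotated. The table gives 1 value per gene, so reads from the hairpin-ended and the longer transcript could not be separated.

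**Figure D4:**
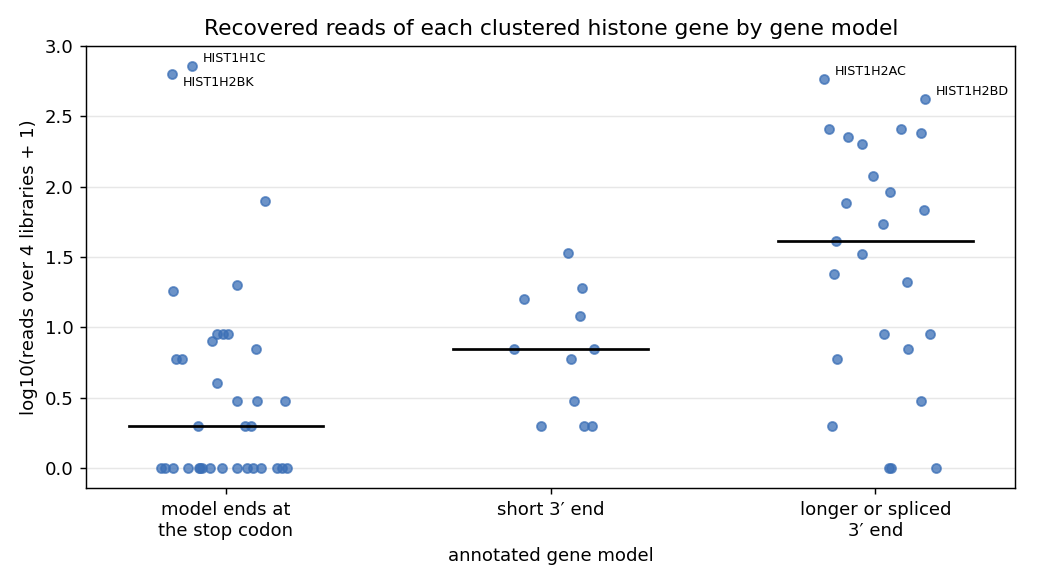
Reads of each clustered histone gene over the 4 libraries, as log10(reads + 1), by the 3′ end of its annotated model. Lines are medians of 1, 6 and 40 reads, and HIST1H1C and HIST1H2BK stand far above the other genes whose model ends at the stop codon.

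Many H2A and H2B genes are arranged back to back and share a promoter region, and 12 pairs had starts within 500 bases (219 to 357 bases apart). In 1 of them HIST1H2BO is set against the H3 gene HIST1H3J, whose model starts within HIST1H2AM, itself counted as a partner of HIST1H2BO. Starts here are those of the annotated gene models. Where the model holds the coding sequence only, as in HIST1H2BK and HIST1H2AH, that is the start codon and not the start of the RNA. Levels within a pair were often unequal. HIST1H2BK, with 25.3 FPKM, starts 331 bases from HIST1H2AH, with 0.674 FPKM, a 37.5-fold difference that rests on 635 and 17 reads. HIST3H2A and HIST3H2BB start 234 bases apart and had 1.99 and 0.0509 FPKM, from 119 and 8 reads. HIST1H2AC was 4.40-fold above HIST1H2BC, whose start is 219 bases away. The HIST2H2BE and HIST2H2AC pair was closer, at 1.78 and 3.04 FPKM, and both had positive log2 changes of like size. In the HIST1H2AC and HIST1H2BC pair, where both genes were also tested, the log2 changes were unlike, at 0.47 and 0.15. HIST1H2BF had 75 reads where its partner HIST1H2AD had none.

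Promoter sequences were taken from RefSeq (assembly GRCh38.p14), from 250 bases before to 50 after the start, for the 61 members that matched by symbol. The promoters below are those of the highest gene, of the only gene called, and of an H4 gene with a different layout. Capitals mark matches to the TATA box (TATAAA), the CCAAT box (CCAAT) and the octamer (ATTTGCAT), the binding motif of the POU factor OCT1. Matches were taken on either strand and anywhere in the window, so a match may belong to a neighbouring gene. The first TTTATA of HIST2H2AC, for example, is also a TATAAA in the HIST2H2BE window. Where matches on both strands overlap, their letters run together.
HIST1H2BK: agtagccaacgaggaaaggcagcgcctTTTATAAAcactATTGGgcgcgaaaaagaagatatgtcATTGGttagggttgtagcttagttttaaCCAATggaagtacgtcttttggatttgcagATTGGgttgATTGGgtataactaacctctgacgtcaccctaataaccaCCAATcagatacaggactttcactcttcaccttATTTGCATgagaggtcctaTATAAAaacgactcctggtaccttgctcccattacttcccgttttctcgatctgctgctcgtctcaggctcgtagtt
HIST2H2AC: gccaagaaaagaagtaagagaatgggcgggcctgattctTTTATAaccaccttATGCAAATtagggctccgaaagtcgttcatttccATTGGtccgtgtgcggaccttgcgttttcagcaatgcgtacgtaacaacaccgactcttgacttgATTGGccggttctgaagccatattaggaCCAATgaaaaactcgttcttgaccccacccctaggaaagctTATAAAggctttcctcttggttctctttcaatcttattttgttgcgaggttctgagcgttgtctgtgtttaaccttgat
HIST1H4H: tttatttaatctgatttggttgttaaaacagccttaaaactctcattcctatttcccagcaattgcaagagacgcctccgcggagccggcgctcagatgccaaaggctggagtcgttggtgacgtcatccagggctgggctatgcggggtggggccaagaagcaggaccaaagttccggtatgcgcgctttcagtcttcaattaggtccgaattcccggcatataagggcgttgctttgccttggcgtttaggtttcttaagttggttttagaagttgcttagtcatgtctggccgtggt
They lie at chr6:27146809-27147108 (minus strand), chr1:149886668-149886967 (plus strand) and chr6:26285485-26285784 (minus strand). The HIST2H2AC window overlaps that of HIST2H2BE on the opposite strand, so its octamer is the same octamer read from the other side. HIST1H4H had no match to any of the 3 motifs.

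The octamer occurred in 11 of 14 H2A promoters (78.6%) and 14 of 18 H2B promoters (77.8%), against 1.77% of all 35116 RefSeq promoters of this length. It was in 0 of 6 H1 and 0 of 13 H4 promoters. Of the 10 H3 promoters 1 held it, that of HIST1H3D, but RefSeq gives this gene the same window as the H2A gene HIST1H2AD (chr6:26199244-26199543, minus strand), so it is the same octamer counted again. CCAAT was in every H1, H2A, H2B and H3 promoter that matched but in 3 of 13 H4 promoters (23.1%), against 34.6% of all promoters. TATAAA was in 65.6% of the members and 11.5% of all promoters. Paired genes share bases in these windows, so the promoters are not independent. Shares were also taken by read count, as a description. The 22 promoters of genes with 10 or more reads held TATAAA in 63.6%, CCAAT in 86.4% and the octamer in 50.0%. The 39 others held them in 66.7%, 82.1% and 38.5%.

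Histone genes outside the clusters gave far more signal. The 19 listed replication-independent genes summed to 511 and 484 FPKM at 0 Gy and 617 and 607 FPKM at 30 Gy. Clustered genes were 13.7% and 10.97% of all histone FPKM at 0 Gy and 12.3% and 13.7% at 30 Gy, so this share overlapped between doses. Of 11 tested replication-independent genes, limma called 6 higher and 1 lower (63.6%, beside 19.8% of all tested genes). The list includes H2AFX, which has a hairpin like the clustered genes and is among those called higher. Their median log2 change was 0.35 beside -0.00068 over all tested genes. Among clustered genes 1 of 14 was called, and the difference between the 2 groups of histone genes was not tested.

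H2AFX codes for H2A.X, the variant phosphorylated at DNA breaks, and its RNA can end either at a hairpin or at a poly(A) tail. It had 19.4 and 23.4 FPKM at 0 Gy and 53.2 and 45.6 FPKM at 30 Gy, a log2 change of 1.17 (SE 0.12, adjusted p 0.00672 by limma). The call was lost without the first or the second 0 Gy library (adjusted p 0.0847 and 0.0800). Over all tested genes 10.8% were called higher and 9.06% lower. Within 1 Mb of H2AFX on chromosome 11, a region chosen after the data had been seen, 7 of 26 other tested genes were called higher and 0 lower. Of these 26, 25 had a positive log2 change, beside 49.9% of all tested genes, and their median was 0.25. The part of these neighbours in the H2AFX value was not tested. CENPA, the H3 variant of centromeres, rose from 8.49 and 7.80 FPKM to 13.7 and 11.8 FPKM (log2 change 0.58, adjusted p 0.0194). H2AFJ rose from 6.69 and 4.96 FPKM to 9.13 and 9.81 FPKM (log2 change 0.63, adjusted p 0.0374). H2AFY2, a macroH2A gene, fell from 13.9 and 14.6 FPKM to 10.1 and 9.05 FPKM (log2 change -0.52, adjusted p 0.0162).

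Among 11 genes that act on transcription of clustered histone genes, 2 were called higher and 2 lower (36.4%, beside 19.8% of all tested genes). NPAT, the coactivator at histone loci, had 1.63 and 1.81 FPKM at 0 Gy and 1.99 and 2.70 FPKM at 30 Gy (log2 change 0.29, adjusted p 0.217 by limma). CDK2 and its partner CCNE1, which phosphorylate NPAT, rose, with log2 changes of 0.46 (adjusted p 0.0338) and 0.45 (adjusted p 0.0386). MYC fell from 112 and 105 FPKM to 72.7 and 63.7 FPKM (log2 change -0.66, adjusted p 0.0113), and YY1 fell with a log2 change of -0.32 (adjusted p 0.0315).

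Of 22 genes for the processing, export and decay of histone RNA, limma called 0, with 4 at an unadjusted p under 0.05, and voom called 5. SLBP, which binds the hairpin, had 60.7 and 60.8 FPKM at 0 Gy and 56.1 and 50.8 FPKM at 30 Gy. Its log2 change was -0.18 (adjusted p 0.130 by limma). SNRPB, a core protein of small nuclear ribonucleoproteins, had 92.2 and 87.2 FPKM at 0 Gy and 108 and 87.8 FPKM at 30 Gy. The list median was -0.08.

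Histone chaperones, which carry histones to and from DNA, had 5 of 27 tested genes called higher and 2 lower by limma (25.9%, beside 19.8% of all tested genes), and the other 20 did not pass. ASF1B, which hands H3 and H4 to the assembly machinery, rose from 14.0 and 14.3 FPKM to 24.0 and 22.8 FPKM (log2 change 0.68, adjusted p 0.0057 by limma). HJURP, the chaperone of CENPA, rose with a log2 change of 0.63 (adjusted p 0.0061), and ANP32E, which removes H2A.Z, with 0.43 (adjusted p 0.0130). SPTY2D1 fell from 9.82 and 11.1 FPKM to 5.24 and 5.79 FPKM (log2 change -0.82, adjusted p 0.0084).

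S-phase genes, a list that includes SLBP, were called in 1 direction, with 18 of 36 called higher and 0 lower by limma. That is 50%, beside 19.8% of all tested genes, and the median log2 change of the list was 0.36. The 4 largest were RRM2, a subunit of ribonucleotide reductase (log2 change 0.87), CDC6, which loads the replicative helicase (0.72), FEN1, which trims Okazaki fragments (0.63), and CLSPN, a checkpoint adaptor (0.60). The clustered histone median, 0.39, was of like size over 14 tested members, with 1 of them called.

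**Figure D5:**
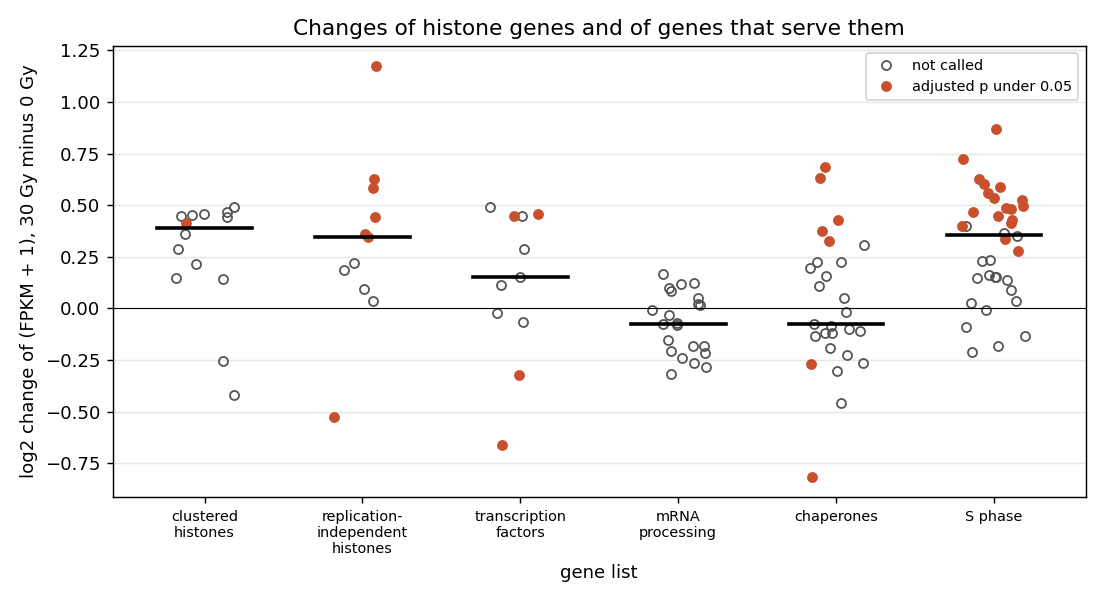
Log2 change of FPKM + 1, 30 Gy minus 0 Gy, with 1 point for each tested gene of the clustered histones and of the 5 other lists, and a bar at each median. Medians were 0.39 for clustered histones, 0.35 for replication-independent histones and 0.36 for S-phase genes, with -0.08 for processing factors and -0.07 for chaperones.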

How the data were processed

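The authors deposited 1 table of FPKM per gene for the 4 libraries, with gene lengths. The submitters' processing notes give hg38 as the build, and the positions of all 71 members equal GENCODE 29. The aligner, the counting tool, strand use and the handling of shared reads are not named: not given in the sources used here. Multiplying FPKM by length gave whole multiples of 1 step per library, within 0.001, so whole reads were recovered.

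Genes that reached 1 FPKM in 2 or more libraries were fitted on log2(FPKM + 1) in limma 3.58.1 (R 4.3.3), using lmFit and eBayes with trend, without covariates and with two-sided p-values. A log2 change is 30 Gy minus 0 Gy and understates change in low genes. Folds are ratios of mean FPKM. Scripts were tested on simulated data.

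The members and gene lists were chosen with earlier results of these data known. Named are the 25 highest members by mean FPKM (those under the filter mostly by counts), members called, SLBP, NPAT, and up to 4 called genes per list, or the 2 highest where none was called. HIST genes of other biotypes (19) were not used. Alternatives were a pseudocount of 0.1, other filters, scalings and variance fits, voom, a replicate block and leaving out each library.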

Additional observations from a re-analysis of the deposited data

How the results depend on the processing

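Precision was limited by depth: most members had fewer than 10 reads in a library, and 2 libraries per dose left 2 residual degrees of freedom. The count of clustered histone genes called higher, 1 in the fit described, was 0 with every gene above 0 tested, with median centring and with voom, and 3 (HIST1H4H, HIST2H2AC and HIST2H2BE) with eBayes without trend. Leaving out 1 library gave 0 to 1. A filter at FPKM 5 also gave 1, but HIST1H1C (adjusted p 0.0493). The adjusted p of HIST2H2AC was 0.146 with every gene above 0 and 0.0520 with median centring. No alternative called a member lower.

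With every gene above 0 tested, calls fell from 7 to 0 for replication-independent histones, from 4 to 0 for transcription factors, from 7 to 3 for chaperones and from 18 to 4 for S-phase genes. Leaving out 1 library gave 0 to 2, 0 to 1, 0 to 4 and 0 to 7 calls. Without either 0 Gy library no gene of the 13379 was called by limma, although 3422 and 3460 had an unadjusted p under 0.05. For RNA processing factors, 0 became 2 with the filter at FPKM 5, 1 with quantile normalization and 5 with voom. The causes were not tested.

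Among the genes named, directions reversed only when 1 library was left out. The log2 change then ranged from -0.065 to 0.35 for HIST1H2AG, from -0.13 to 0.43 for HIST1H2BC, from -0.17 to 0.60 for HIST1H2BD, from -0.0071 to 0.58 for HIST1H4I and from -0.029 to 0.26 for SNRPB. Of 158 alternative values for single members, 141 kept direction and side of the threshold. For all tested members but HIST2H2AC, keeping the side means staying uncalled, so this count says little about stability. The 8 values at which a call was lost were all of HIST2H2AC, the only member called.

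Deviations from the group means were nearly uncorrelated between libraries of the same replicate number (r = -0.0263). That value cannot show whether these libraries were paired by culture or batch, which the labels do not say. With a replicate block, 0 members were called, HIST2H2AC had an adjusted p of 0.0777, and calls over all genes went from 2654 to 1926.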

Other observations

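Other genes around the clusters were also looked at. Within 1 Mb of the HIST1 cluster on chromosome 6, 32 genes that are not members were tested by limma. Of these, 2 were called higher and 1 lower, and their median log2 change was 0.11. Around the HIST2 cluster on chromosome 1, 27 other genes were tested, with 4 called higher, 1 lower and a median of 0.05. Over all tested genes 10.8% were called higher and 9.06% lower. The regions around the 2 clusters were chosen after the data had been seen.

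Of the 19 HIST genes of other biotypes, 8 were above 0 in some library, with sums of 1.52 and 0.940 FPKM at 0 Gy and 2.52 and 1.61 FPKM at 30 Gy. HIST2H2BC was the highest of them.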
